A study of Homo sapiens with 17 samples.

Results

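The genes described here are 8 members of the intermediate filament family: the keratins KRT7, KRT8, KRT18 and KRT19, vimentin (VIM), nestin (NES) and the nuclear lamins LMNA and LMNB1. They were chosen by symbol, with earlier values of these libraries known, out of 58302 gene identifiers in the count tables and 28285 in the TPM tables, and all 8 were found in both. The study measured RNA in cells made from H1, a human embryonic stem cell line. The cells were endothelial cells positive for a GATA2/eGFP reporter, derived with or without vitamin C, so that all groups share the reporter, the single line H1 and the endothelial derivation. By the titles, 4 libraries come from sorted cells, 2 derived with vitamin C and 2 without. Another 10 libraries form a course after re-plating, with 1 library for each condition at 0, 24, 36, 48 and 60 h. The last 3 come from re-plated vitamin C cells that were separated into suspended cells, at 96 and at 60 h, and cells still adherent at 60 h, which the labels call a mixture of endothelial and blood cells.

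Intermediate filaments are ropes of coiled protein that give a cell and its nucleus mechanical strength. Keratins form them as obligate pairs of a type II chain (KRT7, KRT8) and a type I chain (KRT18, KRT19), and KRT8 with KRT18 is the pair of simple epithelia. Vimentin is the main filament protein of mesenchymal, endothelial and blood cells, nestin joins vimentin filaments in progenitor cells and in growing endothelium, and lamins line the inner nuclear membrane: LMNA encodes the A-type lamins, which become more abundant as many cells differentiate or stiffen, and LMNB1 a B-type lamin made in most dividing cells.

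Positions are those of GENCODE release 29 on GRCh38. KRT8 (chr12:52897187-52949954, minus strand) and KRT18 (chr12:52948871-52952901, plus strand) lie side by side, and their annotated spans share 1084 bases on opposite strands. KRT7 (chr12:52232520-52252186, plus strand) is in the same keratin cluster, and KRT19 (chr17:41523617-41528308, minus strand) is in the type I cluster. VIM is at chr10:17228259-17237593 (plus strand), NES at chr1:156668763-156677397 (minus strand), LMNA at chr1:156082573-156140089 (plus strand) and LMNB1 at chr5:126776623-126837020 (plus strand). Whether counting used the strand is not given in the sources used here, so counts of overlapping genes are uncertain.

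Each count library held 6214675 to 11058345 counted reads. All 12 endothelial markers looked up, such as CDH5 and KDR, were above 0 in every library of the course, and their summed level was 7227 to 10200 CPM (counts scaled to a common library total). In the sorted cells 11 of them are listed, all above 0, and summed to 2669 to 4342 TPM (a like unit that also divides by transcript length). How deeply the sorted libraries were sequenced is unknown. For these sorted libraries the titles and the sample descriptions disagree on the condition of 2 of 4, and the titles were used. Since RNA was taken from whole populations, fewer cells of a type and less RNA per cell cannot be told apart. Nothing in the labels says that libraries came from separate cultures, so p-values measure only the spread between these libraries.

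Per kilobase of transcript, VIM had the highest level of the 8 genes in all 17 libraries. KRT8 and KRT18 came next in every library of the course, of the sorted cells and of the adherent cells, and KRT19 or NES had the lowest level among the 7 genes other than KRT7. In suspended cells at 96 h, where LMNA and LMNB1 stood at 78.8 and 77.2 CPM per kb, both lamins were above KRT18 (43.4 CPM per kb) and KRT8 (25.2 CPM per kb). The ratio of KRT8 to KRT18 per kilobase stayed between 0.581, in suspended cells at 96 h, and 1.38, in course cells without vitamin C at 0 h.

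KRT7 was close to absent. It had 3 reads in the course library with vitamin C at 0 h, 1 read in that without vitamin C at 36 h and none in the other 11 count libraries, where a count of 0 allows 0.271 to 0.483 CPM. In the sorted cells it is listed at 0.67 TPM in 1 library with vitamin C and at 0 in the other 3. It was below the filters and entered no test. Of 55 keratin genes in the count tables, 4 reached 5 CPM in any count library, namely KRT8, KRT18, KRT19 and KRT10, a type I keratin of the upper epidermis at 5.06 to 14.4 CPM. There were 36 with no read in any count library. In the sorted cells 5 keratin genes reached 5 TPM in any library, these 4 and KRT17. KRT17 was at 0.66 to 7.94 TPM there and at most at 0.616 CPM in the count libraries.

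In the course, KRT8, KRT18, KRT19 and VIM were lower in the cells derived with vitamin C at every time, while NES, LMNA and LMNB1 overlapped between the conditions. This contrast was known when the genes were chosen, so its values are a description, with no test. Course CPM values of these genes and of their annotated copies were scaled by TMM (trimmed mean of M-values), which corrects for a few genes taking up the reads. Marker sums, CPM of other listed genes and ratios per kilobase use the library total. KRT8, the type II chain, had 259, 243, 253, 236 and 239.5 CPM at 0, 24, 36, 48 and 60 h in cells with vitamin C, against 625, 598, 575, 580.1 and 659 CPM in cells without. The 5 libraries of each condition lay close together and the conditions were far apart. The log2 difference over the course was -1.30, with 5 pairwise differences from -1.46 to -1.19.

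KRT18, the type I partner of KRT8, had 198, 252, 270.2, 253 and 224 CPM with vitamin C, against 366, 531, 463, 469.9 and 462 CPM without. The 2 sets did not overlap and the log2 difference was -0.94. KRT19, a smaller type I keratin of simple and ductal epithelia, had 22.9, 13.1, 9.41, 16.2 and 13.03 CPM with vitamin C, against 79.5, 42.3, 39.2, 35.2 and 33.2 CPM without. Again no library with vitamin C reached one without, and the log2 difference of -1.61 was the largest of the 7 genes. VIM had 2058, 1824, 2034, 2052 and 1992 CPM with vitamin C, against 2519, 2143, 2645, 2604 and 2643 CPM without, a log2 difference of -0.33. Its 2 sets were also separate, but with a far smaller gap than the keratins.

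**Figure D1:**
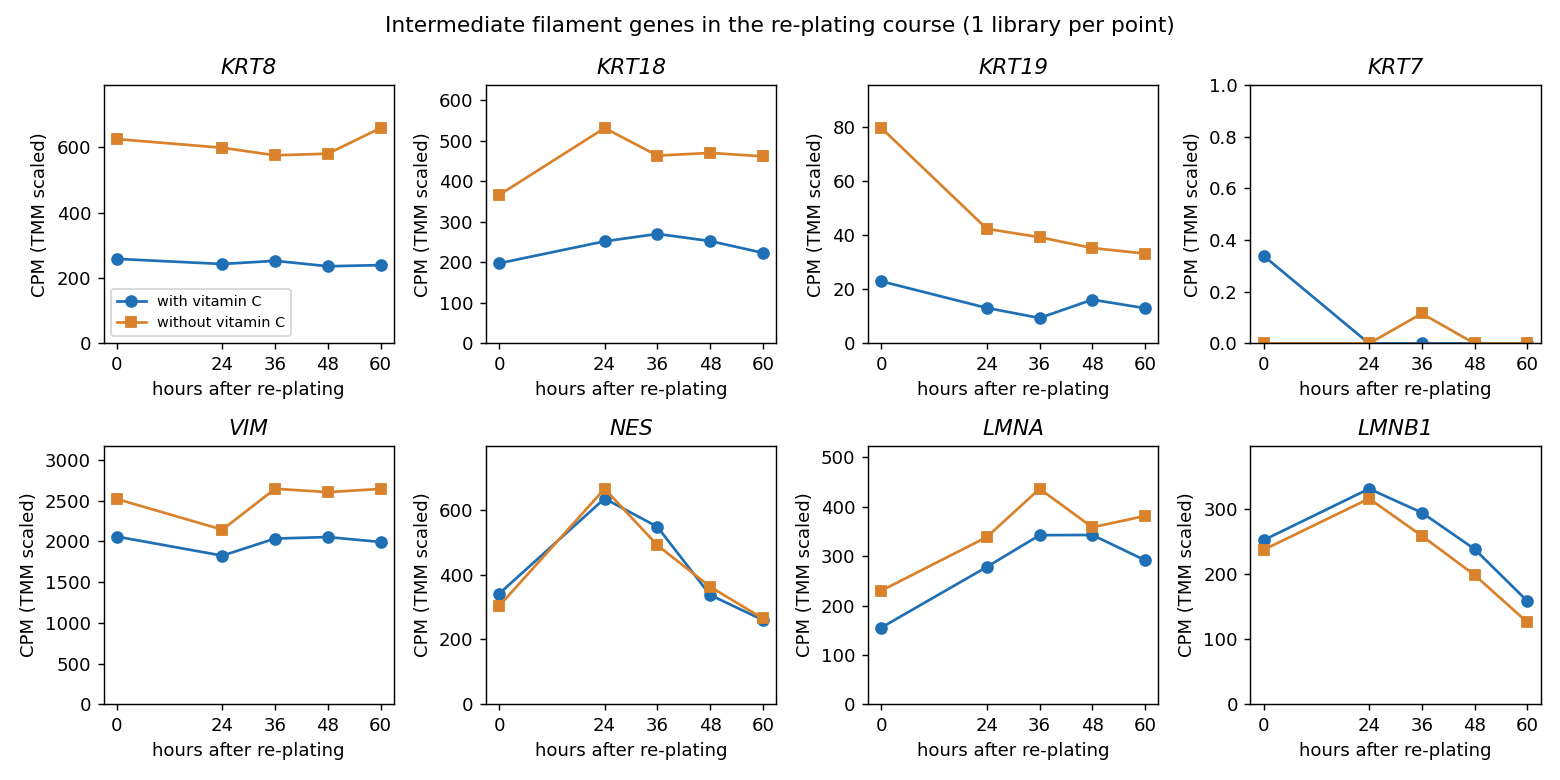
CPM (TMM scaled, linear axis from 0, 1 library per point) of the 8 genes against hours after re-plating, cells with vitamin C as circles and cells without as squares. For KRT8, KRT18, KRT19 and VIM every circle lies below every square, while NES and LMNB1 are highest at 24 h and lowest at 60 h in both conditions.

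The other 3 genes overlapped between the conditions. NES had 341, 635, 548, 337 and 260.1 CPM with vitamin C, against 303, 665, 491, 363 and 265 CPM without, and a log2 difference of 0.03. LMNA had 155, 278, 343, 343 and 292 CPM with vitamin C, against 230.2, 339, 437, 359 and 381.5 CPM without. It was lower with vitamin C at each of the 5 times, by log2 differences of -0.57 to -0.06. LMNB1 had 252, 331, 294, 238 and 158 CPM with vitamin C, against 237, 315.5, 258, 198 and 126 CPM without. It was higher with vitamin C at all 5 times, by 0.07 to 0.33 on the log2 scale.

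As background to these values, edgeR's quasi-likelihood test with time as a factor called 5.87% of 16276 genes at an adjusted p (Benjamini-Hochberg) under 0.05. All 5 libraries with vitamin C lay below all 5 without for 0.866% of the genes, and the conditions were separate in either direction for 1.59%. Nothing is read from these shares for the 8 genes, since the contrast chose them. Other markers moved with the same contrast. Among mesenchymal and smooth muscle markers 6 of 10 tested were lower and none higher, TAGLN by a log2 difference of -0.72 ± 0.10 (SE) and LUM by -1.39 ± 0.23, and their summed level was 633 to 2379 CPM with vitamin C and 1057 to 2246 CPM without. Among blood markers 7 of 11 were higher, including SPI1, with sums of 97.5 to 421 CPM with vitamin C and 39.7 to 90.3 CPM without. Among trophoblast and amnion markers, a cell type that bears simple keratins, HAND1 was lower by -1.76 ± 0.15 (adjusted p = 4.14e-05) and GATA3 higher by 0.42 ± 0.10, out of 5 tested, and the summed level was 84.9 to 121 CPM with vitamin C and 74.0 to 186 CPM without. Of 3 neural markers STMN2 and TUBB3 were lower, of 5 mesothelial markers BNC1 was lower, and of 12 endothelial markers 4 were higher, ENG by 0.62 ± 0.09. Of 18 markers of dividing cells 3 were higher, and none of 5 pluripotent markers was called. Of 12 epithelial markers 6 could be tested and none was called, and their sums overlapped, at 20.6 to 54.4 CPM with vitamin C and 29.1 to 53.0 CPM without. The part of these cell types in the keratin and vimentin levels was not tested.

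Among 40 other genes of the filament system that were tested, 5 were called in this contrast (12.5%, against 5.87% of all genes). The lists were chosen with earlier results of these data known, so this share and the p-values are descriptions. KRT80, a type II keratin, was lower with vitamin C (log2 -1.72 ± 0.43 SE, adjusted p = 0.0361), from 0.15 to 0.97 CPM with vitamin C and 0.91 to 2.61 CPM without. NEFH, the heavy neurofilament chain, was lower too (log2 -0.88 ± 0.17, adjusted p = 0.00739) and was the 1 gene called among 8 other filament genes tested. Among 12 cross-linker and desmosome genes, PKP2, a desmosomal plaque protein, was lower (-0.68) and DSC2, a desmosomal cadherin, higher (0.31). Of 18 genes for nuclear envelope proteins and lamin processing 1 was called, LEMD3, an inner membrane protein that was higher by 0.31. Of 9 transcription factors listed as regulators of keratin or vimentin genes, CDX2, a factor of intestine and trophoblast, was lower by -2.08 ± 0.45 and ZEB1, a repressor of epithelial genes, by -0.32 ± 0.08.

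Annotated copies of the keratins were checked because their reads can be shared with the parent. The 51 copies named KRT8P summed to 10.5 to 16.4 CPM with vitamin C and 20.4 to 26.0 CPM without, in the same order as KRT8 itself. They were equal to 3.51 to 6.33% of its count in the course libraries and to 14.7% in suspended cells at 96 h. The 67 copies named KRT18P summed to 8.68 to 13.4 CPM with vitamin C and 5.79 to 24.3 CPM without, and overlapped. No read was assigned to the KRT19P copies. On the strand opposite to VIM, VIM-AS1 reached up to 39.5% of the VIM count, and a further unnamed antisense gene up to 30.6%. Without strand their reads cannot be told apart from those of VIM.

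Sorted cells gave a second look at vitamin C, in libraries outside the course. KRT8 had 401 and 376 TPM with vitamin C, against 433 and 412 TPM without. KRT18 had 421 and 513 TPM with vitamin C, against 459 and 532 TPM without, so that the conditions overlapped. For KRT8 both libraries with vitamin C lay below both without, by a small margin. The log2 differences on the log2(TPM + 1) scale, fitted with limma, were -0.12 ± 0.23 (SE, n = 2 each) for KRT8 and -0.09 ± 0.25 for KRT18. The 95% interval of KRT8 ran from -0.69 to 0.44 and did not reach the -1.27 seen between the course libraries at 0 h, and that of KRT18 ran from -0.71 to 0.53, against -0.89 in the course at 0 h. These course and sorted values come from different units and tables, and the difference between them was not tested.

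KRT19 had 42.8 and 59.6 TPM with vitamin C, against 85.1 and 73.6 TPM without, without overlap (log2 -0.64 ± 0.28). Its 95% interval ran from -1.34 to 0.07 and did not reach the -1.77 of the course at 0 h. VIM had 4139 and 3474 TPM with vitamin C, against 3867 and 4280 TPM without, and overlapped. NES differed more between replicates than between conditions, with 242 and 90.7 TPM with vitamin C, against 172 and 89.8 TPM without. LMNA had 147 and 219.8 TPM with vitamin C, against 235 and 236 TPM without, and LMNB1 had 89.2 and 173 TPM with vitamin C, against 287 and 270.5 TPM without. Neither lamin overlapped between the conditions. The LMNB1 difference was the largest of the 7, at -1.16 ± 0.36 (95% interval -2.05 to -0.26), opposite in sign to the course, where 0 h gave 0.09.

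Limma called 0% of 14421 genes at an adjusted p under 0.05 (313 at an unadjusted p under 0.05), and the adjusted p of all 7 genes was 1. Complete separation of 2 libraries against 2 occurred for 28.4% of all genes, and both with vitamin C below both without for 19.3%, and KRT8, KRT19, LMNA and LMNB1 were in that last share. With the conditions taken from the descriptions, 5 of the 7 changed sign: KRT18 to 0.25, KRT19 to 0.13, LMNA to 0.29, LMNB1 to 0.43 and NES to -1.17 (adjusted p = 0.0618 by limma). The descriptions give both libraries numbered 1 as without and both numbered 2 as with vitamin C, so that in this grouping condition and replicate number cannot be told apart. Beside the lamins, the summed level of 18 markers of dividing cells was 901 and 3904 TPM in the libraries with vitamin C, against 3412 and 3979 TPM without, so that 1 library with vitamin C stood apart. Without that library the LMNB1 difference was -0.68. The part of cell division in the LMNB1 level was not tested.

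**Figure D2:**
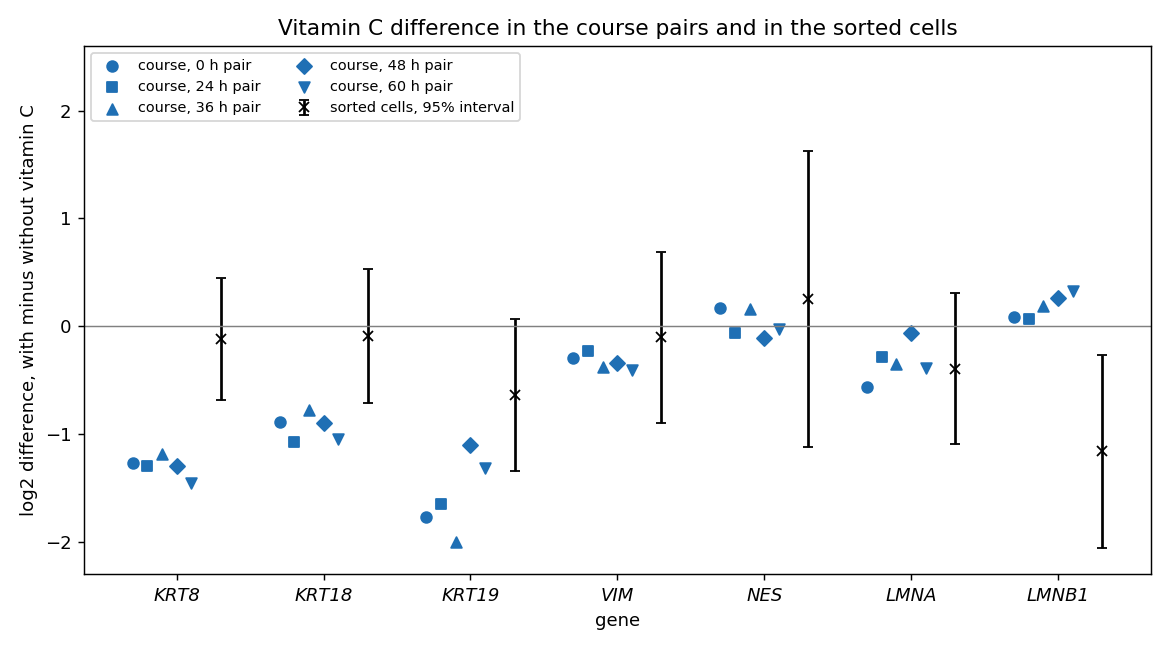
Log2 difference, with minus without vitamin C, for 7 genes: filled symbols are the 5 course pairs (CPM, 1 library each), crosses the sorted cells (log2(TPM + 1), limma, n = 2 each) with 95% intervals. All course symbols of KRT8, KRT18, KRT19 and VIM lie below 0, while the sorted intervals of all genes but LMNB1 include 0.

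After re-plating, LMNA, KRT18 and NES rose and KRT19 fell in a fit over both conditions together, while KRT8, VIM and LMNB1 were not called. The conditions were not tested apart in this contrast. The mean of 24, 36, 48 and 60 h was set against 0 h in the additive edgeR fit over 10 libraries, which called 36.3% of 16276 genes (16.8% higher, 19.5% lower). Of the 7 genes tested, 3 were called higher and 1 lower, in a contrast in which a large share of all genes changed. The genes were chosen with earlier values of these libraries known, so their p-values in the course are no independent test. LMNA changed by a log2 difference of 0.86 ± 0.10 (SE, adjusted p = 2.15e-05), and each of the 8 later libraries lay above the 0 h library of its condition. KRT19 changed by -0.98 ± 0.15 (adjusted p = 0.000225), and each of its later libraries lay below the 0 h library of its condition.

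KRT18 rose by 0.36 ± 0.08 on the log2 scale (adjusted p = 0.00347), whereas KRT8, its partner, gave -0.07 ± 0.07 (adjusted p = 0.47). Per kilobase, the ratio of KRT8 to KRT18 was 1.06 at 0 h and 0.756 to 0.867 later with vitamin C, and 1.38 at 0 h and 0.911 to 1.154 later without. The same direction in both conditions shows in the plot of the 2 ratios. NES rose by 0.38 ± 0.08 (adjusted p = 0.0024), but 3 of its 8 later libraries, at 48 and 60 h with vitamin C and at 60 h without, lay below the 0 h library of their condition. VIM gave -0.04 ± 0.06 (adjusted p = 0.644) and LMNB1 -0.10 ± 0.08 (adjusted p = 0.372). The 4 calls were kept when any 1 of the 10 libraries was left out.

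A mean over the later times hides the course of NES and LMNB1, which peaked at 24 h in both conditions. In a contrast added after these values were seen, 24 h against 0 h alone (33.3% of genes called, 16.2% higher), NES was higher by 1.01 ± 0.10 (adjusted p = 1.32e-05) and LMNB1 by 0.40 ± 0.10 (adjusted p = 0.0088). KRT8 was the 1 gene of the 7 not called at 24 h, and VIM was then lower by a log2 difference of -0.20 ± 0.07 (adjusted p = 0.0399). From 24 to 60 h, a line per condition fell for both. The NES slope, scaled to 60 h, was -2.28 ± 0.24 with vitamin C (adjusted p = 7.79e-05) and -2.21 ± 0.23 without (adjusted p = 4.6e-05). For LMNB1 it was -1.73 ± 0.28 (adjusted p = 0.00167) with vitamin C and -2.16 ± 0.28 (adjusted p = 0.000193) without. These fits leave out the 0 h pair and called 11.6% of 15602 genes with vitamin C (5.22% lower) and 16.3% without (7.68% lower). Both lines start at the 24 h peak already seen in these values, so their p-values are no independent test of a fall. None of the other 5 genes was called in either slope.

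Over all 5 times, a straight line called none of the 7 genes in either condition, where it called 1.78% of all genes with vitamin C and 4.28% without. The difference in slope between the conditions was called for 0% of genes (0 genes by edgeR, 473 at an unadjusted p under 0.05, 11 by DESeq2) and for none of the 7. Its estimate for LMNB1 was 0.28 ± 0.67 log2 per 60 h, and it turned to -0.83 without the 0 h library with vitamin C, to -0.36 without the 60 h library without vitamin C and to 1.54 without the 0 h library without vitamin C. For KRT19 it was 0.54 ± 0.52, which became 1.63 without the 0 h library with vitamin C and -0.12 without that derived without it.

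**Figure D3:**
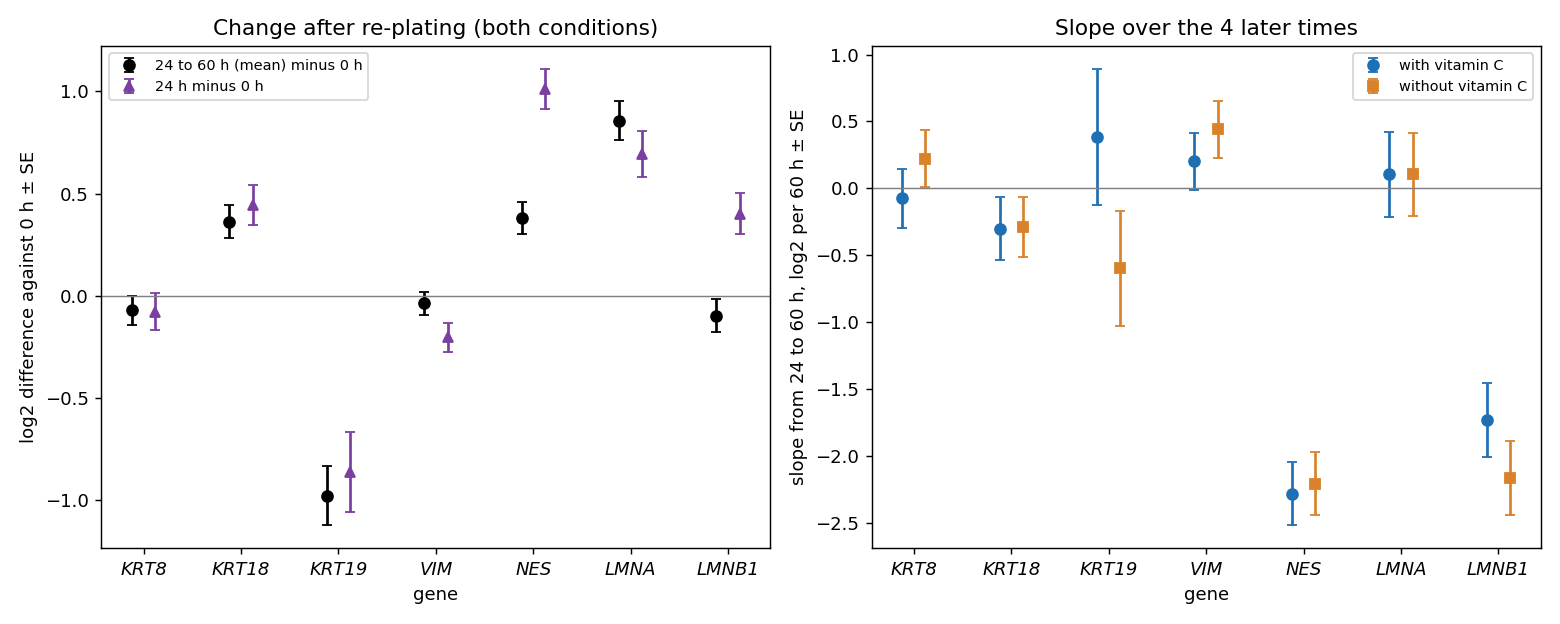
Left, log2 difference against 0 h ± SE for the mean of 24 to 60 h (circles) and for 24 h alone (triangles), both conditions fitted together; right, slope from 24 to 60 h in log2 per 60 h ± SE with vitamin C (circles) and without (squares). LMNA, KRT18 and NES lie above 0 and KRT19 below 0 on the left, and the NES and LMNB1 slopes, from -2.28 to -1.73, stand apart from the rest on the right.

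The windows upstream of NES and LMNB1 are shown because these 2 genes moved together, up at 24 h and down after. They are the 250 bases before the RefSeq start (GRCh38.p14) that lies 10 bases from the main annotated start of NES and 12 bases from that of LMNB1, 5′ to 3′ on the gene's strand. Short motifs were searched on both strands. They were the CCAAT box, the GC box with the letters GGGCGG and the TATA box with the letters TATAAA. Also searched were TTTGAA, the letters of the cell cycle homology region found upstream of many genes of cell division, and its variant form TTTAAA. Capitals mark each match. On the other strand GGGCGG reads as CCGCCC, whereas CCAAT there reads as ATTGG.
NES chr1:156677408-156677657 minus strand: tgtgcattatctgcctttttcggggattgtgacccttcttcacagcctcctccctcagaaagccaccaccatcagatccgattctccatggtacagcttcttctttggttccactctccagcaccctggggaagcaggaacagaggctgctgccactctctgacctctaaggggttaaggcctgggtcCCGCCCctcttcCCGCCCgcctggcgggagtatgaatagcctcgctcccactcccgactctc
LMNB1 chr5:126776886-126777135 plus strand: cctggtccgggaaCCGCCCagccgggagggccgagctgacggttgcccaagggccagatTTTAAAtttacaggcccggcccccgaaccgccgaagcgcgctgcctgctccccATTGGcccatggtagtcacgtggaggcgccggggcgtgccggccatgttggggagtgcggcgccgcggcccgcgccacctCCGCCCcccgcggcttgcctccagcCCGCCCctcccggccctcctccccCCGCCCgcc
NES held 2 matches of GGGCGG and no match of the other motifs. LMNB1 held 4 matches of GGGCGG, 1 match of CCAAT and 1 match of TTTAAA, and no matches overlapped. Of 35116 such windows of all genes, 42.6% held GGGCGG and 32.0% held CCAAT. The share was 11.3% for TTTAAA, 10.7% for TATAAA and 13.3% for TTTGAA. A match is only a run of letters and not a shown binding site. KRT7, KRT18 and KRT19 had no entry in the table of windows.

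In the 10 course libraries the genes most like LMNB1, by Pearson's r of log2(CPM + 1) among 11249 genes, were MYBL2 (0.989), DDIAS (0.984) and CDCA5 (0.983), and the r of NES with LMNB1 was 0.848. Those most like NES were EIF4G2 (0.985), ZNF202 (0.981) and PRMT5 (0.976). For LMNA they were ITGA3 (0.981), CDH13 (0.979) and UTP3 (0.959). KRT8 was most like its own copy KRT8P3 (0.971), SARM1 (0.967) and PTPRN (0.949), and KRT18 most like KRT8 and SARM1 (0.927 each) and KCTD12 (0.926). For KRT19 they were SCUBE1 (0.957), TGFBI (0.943) and VWA1 (0.937), and for VIM DGKA (0.962), HOXB9 (0.941) and VIM-AS1 (0.941). All points share the 10 libraries, 5 times and 2 conditions, and the r values are descriptions.

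The LMNA to LMNB1 ratio per kilobase was higher at each later time of the course, with values of 0.557, 0.759, 1.05, 1.299 and 1.66 at 0, 24, 36, 48 and 60 h with vitamin C and 0.876, 0.969, 1.52, 1.63 and 2.73 without. At each time of the course it was lower with vitamin C. The sorted cells had the reverse order, without overlap. There the ratio of TPM was 1.646 and 1.269 with vitamin C and 0.819 and 0.874 without. In the course, summed markers of dividing cells went opposite to the ratio and were lower at each later time. They were at 3792, 3154, 3132, 2599 and 2011 CPM with vitamin C and 3941, 3223, 2594, 2360 and 1139 CPM without. Their part in the ratio was not tested.

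**Figure D4:**
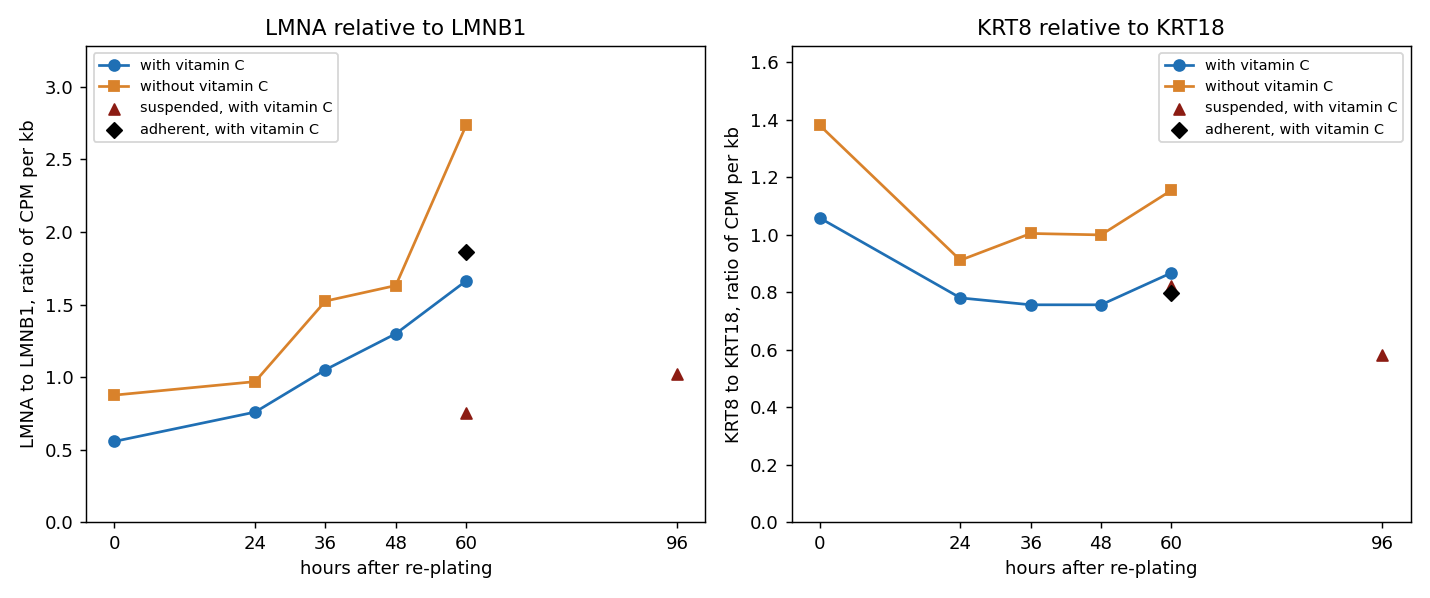
Ratio of LMNA to LMNB1 (left) and of KRT8 to KRT18 (right), each from CPM per kb of transcript on a linear axis from 0, against hours after re-plating, 1 library per point. The LMNA to LMNB1 ratio reaches 1.66 with vitamin C and 2.73 without at 60 h and lies at 0.754 (60 h) and 1.02 (96 h) among suspended cells, and the KRT8 to KRT18 ratio is highest at 0 h in both conditions.

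Among other genes of the filament system, 30.0% of 40 tested were called after re-plating, against 36.3% of all genes, so that the share called was no higher than the background. Of 18 genes for envelope proteins and lamin processing, 6 rose (33.3%, against 16.8% of all genes called higher) and none fell, with a list median log2 of 0.18 against -0.02 for all genes. They included ZMPSTE24 (0.79 ± 0.11), the protease that cuts prelamin A, ICMT (0.44 ± 0.09), the enzyme that methylates it, SYNE3 (1.56 ± 0.30), which links nuclei to the cytoskeleton, and NUP153 (0.28 ± 0.09), a pore protein. Of 12 tested cross-linker and desmosome genes 3 rose (25.0%) and none fell: DST, a linker of filaments (0.85 ± 0.11), DSP, the desmosomal anchor of filaments (0.49 ± 0.08), and TCHP, a keratin-binding protein (0.40 ± 0.09). Of 8 other filament genes 2 rose, SYNM (1.84 ± 0.19) and NEFL (2.51 ± 0.92), and 1 fell, DES, the muscle filament (-2.50 ± 0.59). NEFL stayed under 4 CPM. SYNM encodes synemin, which co-assembles with vimentin.

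Markers of other cells moved after re-plating too. Of 6 epithelial markers tested 4 fell, CDH1 by -3.32 ± 0.52 and EPCAM by -2.27 ± 0.44, and none rose. Of 18 markers of dividing cells 13 fell and none rose, and of 12 endothelial markers 8 rose and 2 fell. Of 10 mesenchymal and smooth muscle markers 5 fell and 1 rose, and their sums were 2379 CPM at 0 h and 633 to 765 CPM later with vitamin C, and 2246 CPM at 0 h and 1057 to 1883 CPM later without. Of 5 trophoblast and amnion markers 3 fell, HAND1 by -2.97 ± 0.15 and GABRP by -2.93 ± 0.52, and none rose. All 5 pluripotent markers tested fell. Of 5 mesothelial markers 2 rose and 2 fell, PDPN by -4.15 ± 0.60, of 11 blood markers 3 rose and 2 fell, and of 3 neural markers 2 rose. Their part in the change of KRT19, the 1 keratin that fell, was not tested.

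Suspended cells at 60 h, set against adherent cells at 60 h, had lower levels of KRT8, KRT18, VIM, NES and LMNA and higher levels of KRT19 and LMNB1. There was 1 library of each, so no test was made, and intervals are exact intervals for counting error only, of the ratio of CPM of the library total. VIM was at 572 CPM in suspended and 2240.5 CPM in adherent cells, a ratio of 0.255 (95% interval 0.247 to 0.264). KRT8 was at 149 CPM in suspended and 232 CPM in adherent cells (ratio 0.642, 0.594 to 0.693). KRT18 was at 146 CPM in suspended and 236 CPM in adherent cells (ratio 0.621, 0.575 to 0.671), so the pair stayed at a like ratio, 0.823 in suspended and 0.796 in adherent cells per kilobase.

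KRT19 went the other way, at 32.9 CPM in suspended and 11.2 CPM in adherent cells, a ratio of 2.94 (2.29 to 3.79). These values rest on 229 reads in suspended and 91 reads in adherent cells. NES was at 141 CPM in suspended and 288 CPM in adherent cells (ratio 0.491). LMNA was at 232 CPM in suspended and 333 CPM in adherent cells (ratio 0.698), and LMNB1 at 278 CPM in suspended and 162 CPM in adherent cells (ratio 1.72), which gave a LMNA to LMNB1 ratio per kilobase of 0.754 in suspended and 1.86 in adherent cells.

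A change of at least 2-fold was seen in 26.9% of 12705 genes (12.3% higher, 14.6% lower). Among the 7 genes KRT19 was past 2-fold higher and VIM and NES past 2-fold lower. The median log2 ratio of all genes was 0.14, and 0.03 with TMM scaling over the 13 count libraries. All 12 endothelial markers were at least 2-fold lower in suspended cells and 11 of 11 blood markers at least 2-fold higher, and 9 of 18 markers of dividing cells at least 2-fold higher. Mesenchymal and smooth muscle markers were at least 2-fold lower in 6 of 8 measured, with a median log2 ratio of -1.45 and sums of 391 CPM in suspended and 825 CPM in adherent cells, and both trophoblast and amnion markers measured were lower too. Both pluripotent markers measured, LIN28A and DNMT3B, were at least 2-fold higher, with list sums of 703 CPM in suspended and 196 CPM in adherent cells. The 1 epithelial and the 1 neural marker measured and 1 of 3 mesothelial markers were at least 2-fold lower. The part of all these cell types in the filament levels was not tested.

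Of 10 genes for proteins that cross-link filaments or hold them to junctions, 3 were at least 2-fold lower and none higher, with a list median log2 ratio of -0.45. DSP was at 45.7 CPM in suspended and 233 CPM in adherent cells, DSG2, a desmosomal cadherin, at 28.7 CPM in suspended and 84.4 CPM in adherent cells, and PLEC, the cross-linker plectin, at 330.2 CPM in suspended and 893 CPM in adherent cells. The log2 ratio was -2.34 for DSP, -1.54 for DSG2 and -1.44 for PLEC. Of 4 other filament genes measured 2 were at least 2-fold lower and 1 higher. SYNM was at 6.47 CPM in suspended and 38.4 CPM in adherent cells. NEFH was higher, at 18.5 CPM in suspended and 8.87 CPM in adherent cells. Of 18 genes for envelope proteins and lamin processing 4 were at least 2-fold lower and 1 higher. SUN1, an inner nuclear membrane protein that binds lamin A, was at 84.8 CPM in suspended and 213 CPM in adherent cells. FNTB went the other way, at 16.1 CPM in suspended and 5.54 CPM in adherent cells. Among 33 measured genes of the filament system 33.3% were at least 2-fold apart, against 26.9% of all genes.

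Suspended cells at 96 h had lower levels of the 5 cytoplasmic filament genes than those at 60 h, while both lamins stayed nearer to their 60 h level. KRT8 was at 44.3 CPM at 96 h and 149 CPM at 60 h (ratio 0.298, 0.267 to 0.332). KRT18 was at 61.7 CPM at 96 h and 146 CPM at 60 h (ratio 0.421, 0.382 to 0.464), and KRT19 at 17.4 CPM at 96 h and 32.9 CPM at 60 h (ratio 0.528, 0.433 to 0.642). VIM was at 267 CPM at 96 h and 572 CPM at 60 h (ratio 0.467), and NES at 44.5 CPM at 96 h and 141 CPM at 60 h (ratio 0.315). LMNA was at 251 CPM at 96 h and 232 CPM at 60 h (ratio 1.08, 1.02 to 1.151), and LMNB1 at 222 CPM at 96 h and 278 CPM at 60 h (ratio 0.80, 0.753 to 0.849). So 4 of the 7, KRT8, KRT18, VIM and NES, were at least 2-fold lower, where 10.5% of 12405 genes were lower by that much and 5.54% higher (16.1% in all). The median log2 ratio of all genes was -0.19, and -0.04 with TMM scaling, under which VIM was no longer 2-fold lower (log2 -0.95, against -1.10) and the other 3 still were.

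Of 31 other genes of the filament system measured 5 were at least 2-fold lower and 2 higher (22.6%, against 16.1% of all genes). DSP was at 1.81 CPM at 96 h and 45.7 CPM at 60 h, and SYNM at 0.904 CPM at 96 h and 6.47 CPM at 60 h. DES went the other way, at 17.5 CPM at 96 h and 2.16 CPM at 60 h. So did PKP2, at 22.2 CPM at 96 h and 10.8 CPM at 60 h. Summed endothelial markers were 937 CPM at 96 h and 2060.1 CPM at 60 h, and blood markers 5676 CPM at 96 h and 2068 CPM at 60 h. Mesenchymal and smooth muscle markers summed to 151 CPM at 96 h and 391 CPM at 60 h. Epithelial markers summed to 39.1 CPM at 96 h and 12.8 CPM at 60 h. EPCAM, the 1 epithelial marker to reach 5 CPM in either library, was at 28.5 CPM at 96 h and 4.46 CPM at 60 h. The part of these cell types in the filament levels was not tested.

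**Figure D5:**
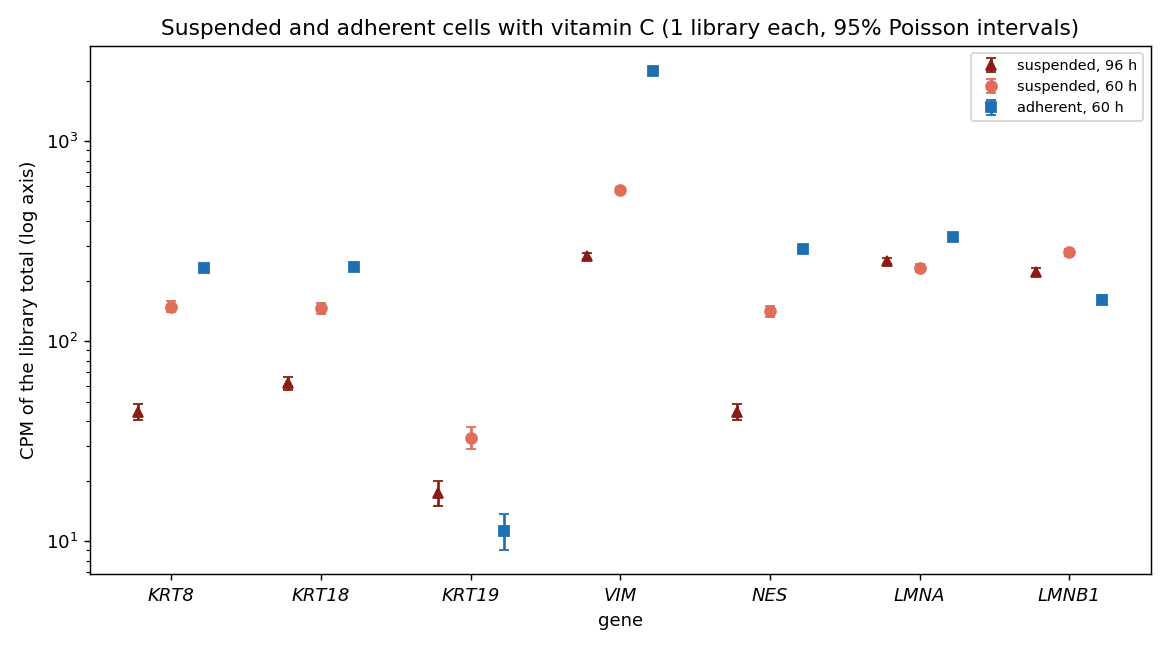
CPM of the library total (log axis) of 7 genes in suspended cells at 96 h (triangles), suspended cells at 60 h (circles) and adherent cells at 60 h (squares), all with vitamin C, 1 library each, with 95% Poisson intervals for counting error only. VIM, NES, KRT8 and KRT18 are lowest in suspended cells at 96 h, higher in suspended cells at 60 h and highest in adherent cells, while KRT19 is highest in suspended cells at 60 h.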

How the data were processed

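RNA was taken with Trizol and made into libraries with an Illumina TruSeq kit from 1 µg of RNA, per the labels. Per the submitters' processing notes, the tools were DESeq 1.18.1, HTSeq 0.6.0, SAMtools 1.3.1 and HISAT2 2.0.4 on GRCh38 (hg38), with no roles given. The authors deposited raw read counts for 13 libraries and values read as TPM for 4 sorted libraries, from their sums (995019 to 996531) and their dependence on gene length. The annotation and strand setting used for counting are not given in the sources used here. Groups came from titles. Reporter-negative cells were not analysed here.

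Counts were tested with edgeR 4.0.16 (TMM, filterByExpr, quasi-likelihood F test, R 4.3.3), and TPM with limma 3.58.1 (trend) on log2(TPM + 1) for genes of at least 1 TPM in 2 libraries, which understates changes of low genes. P-values are two-sided, adjusted by Benjamini-Hochberg over every gene in a fit, with a threshold of 0.05. Alternatives were DESeq2 1.42.0, other size factors, filters and pseudocounts, and libraries left out. The fits were also run on simulated data with the same set spread for every gene. Such data do not carry the shared deviations of these libraries. Suspended and adherent libraries were compared as CPM with 0.5 CPM added to log2 ratios. Named genes besides the 8 are up to 4 per list with the smallest p (or largest ratio), and the 3 with the highest r. The members and lists were chosen with earlier results of these data known. A comparison of coding sequences between the 8 genes is not reported here.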

Additional observations from a re-analysis of the deposited data

How the results depend on the processing

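Each course and separated-cell group has 1 library, so the fits say nothing about variation between cultures, and the sorted contrast rests on 2 libraries against 2 of unknown depth. Grouping the sorted libraries by their descriptions, which sets both libraries numbered 2 against both numbered 1, gave 156 called genes in place of 0, and leaving out each library 0 to 1 genes. Sorted libraries of the same number deviated together (r = 0.565 over 14421 genes). This is 1 value, since with 2 libraries per condition both numbers must give the same r. The 2 pairs only share a number, and the replicate block called 0 genes. The vitamin C contrast of the course (955 genes) gave 1591 with no filter and 505 to 1209 with a library left out (505 to 611 without a library of 24, 36 or 48 h). The re-plating contrast (5911 genes) gave 3844 to 5965, with 3844 without the 0 h library without vitamin C. Hours with vitamin C (289 genes) gave 712 by DESeq2, 438 with no filter, 1814 without the 0 h pair, 92 by rank of the time point and 9 to 624 with a library left out. Hours without vitamin C (697 genes) gave 1284 by DESeq2, 2545 without the 0 h pair and 141 to 1025 with a library left out. The difference in slope (0 genes) gave 11 by DESeq2 and 1 without the 0 h pair. Suspended cells at 96 against 60 h had 1224 genes at least 2-fold apart with 5 CPM added, against 1995. LMNB1 after re-plating had the opposite sign at 24 h alone (0.402, against -0.097 for the mean of the later times), an alternative chosen after seeing the data. KRT19 without vitamin C was called over the 5 times by DESeq2 (-1.25, adjusted p = 0.0379) and without the 0 h library with vitamin C (-1.26, adjusted p = 0.0336), and by no other alternative. For the 8 genes, 580 of the alternative values kept their direction or stayed uncalled, or without a test stayed within a margin. In the vitamin C contrast of the course the margin was the SD of the 5 pairwise log2 differences. In the separated cells it was the counting interval. A further 7 were newly called, 7 without a test moved past the margin, and 1 reversed. The cause was not tested.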
